A study of Mus musculus with 8 samples.

Results

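The crystallins examined here are 10 genes of the alpha, beta and gamma classes: Cryaa, Cryab, Cryba1, Cryba2, Cryba4, Crybb1, Crybb2, Crybb3, Crygd and Crygs. They were matched by symbol in a table of 25477 genes, and all 10 were measured and passed the filter on low counts. The genes, and a set of 3 libraries called lens-rich below (knockout 3, control 2 and control 3), were chosen by the crystallin levels of these same libraries. Differences between those 3 libraries and the other 5 are therefore descriptions and carry no test. The libraries were made from polyadenylated RNA of mouse retina: 4 from mice labelled PD-L1 knockout (knockout 1 to 4) and 4 labelled control (control 1 to 4). The titles of both groups carry the term CNV, for choroidal neovascularization, growth of new vessels from the choroid under the retina. The study's design text gives the purpose as the role of PD-L1, the ligand of the receptor PD-1, in forming such vessels. The labels state neither strain nor age, nor how CNV was induced, which part of the gene was deleted or whether animals were pooled. As the labels do not tie each sample to an animal of its own, p-values measure the spread between these samples only, which may be technical.

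Crystallins are the soluble proteins that fill the fibre cells of the eye lens and give it its refractive index. The alpha class, Cryaa and Cryab, are small heat shock proteins that keep other proteins from aggregating, and Cryab is also made in many tissues outside the lens, including retina. The beta and gamma classes share a fold built of Greek key motifs and are mainly structural. In lens fibres their genes are driven by transcription factors such as c-Maf, which binds a recognition element with the core TGCTGA.

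The promoter letters of the gene set were examined as a description. A link between them and the levels in these libraries was not tested. Windows of 250 bases before to 50 after the annotated start were held by RefSeq (GRCm38.p6, the same assembly as mm10) for 9 of the 10 genes, all but Cryab. At least 1 gene of each class is shown, 5′ to 3′ in the direction of transcription. Capitals mark TGCTGA or its reverse complement TCAGCA, and TATAA or TATATA on the transcribed strand.
Cryaa (chr17:31677681-31677980, plus strand): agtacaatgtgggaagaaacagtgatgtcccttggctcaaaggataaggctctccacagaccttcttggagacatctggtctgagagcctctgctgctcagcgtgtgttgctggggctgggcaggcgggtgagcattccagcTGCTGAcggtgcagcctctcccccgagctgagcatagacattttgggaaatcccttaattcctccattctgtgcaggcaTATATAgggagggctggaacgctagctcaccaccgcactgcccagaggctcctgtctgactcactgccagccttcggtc
Cryba1 (chr11:77725244-77725543, minus strand): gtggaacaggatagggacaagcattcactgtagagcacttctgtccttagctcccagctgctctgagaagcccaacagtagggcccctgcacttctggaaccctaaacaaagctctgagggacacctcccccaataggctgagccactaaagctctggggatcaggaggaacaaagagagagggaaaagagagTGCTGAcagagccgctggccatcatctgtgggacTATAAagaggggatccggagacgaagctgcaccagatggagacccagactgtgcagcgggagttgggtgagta
Crybb1 (chr5:112255570-112255869, plus strand): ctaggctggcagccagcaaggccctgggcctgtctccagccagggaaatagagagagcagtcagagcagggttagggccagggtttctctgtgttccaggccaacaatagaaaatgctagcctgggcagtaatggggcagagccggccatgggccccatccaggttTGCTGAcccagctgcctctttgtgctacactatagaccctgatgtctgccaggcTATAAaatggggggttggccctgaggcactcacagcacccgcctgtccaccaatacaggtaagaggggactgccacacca
Crygd (chr1:65063391-65063690, minus strand): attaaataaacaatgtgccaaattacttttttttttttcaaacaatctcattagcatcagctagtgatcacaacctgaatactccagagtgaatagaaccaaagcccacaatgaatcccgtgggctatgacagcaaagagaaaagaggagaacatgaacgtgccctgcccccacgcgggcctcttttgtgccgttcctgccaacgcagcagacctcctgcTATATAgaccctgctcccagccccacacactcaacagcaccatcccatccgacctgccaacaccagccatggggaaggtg
Crygs (chr16:22811361-22811660, minus strand): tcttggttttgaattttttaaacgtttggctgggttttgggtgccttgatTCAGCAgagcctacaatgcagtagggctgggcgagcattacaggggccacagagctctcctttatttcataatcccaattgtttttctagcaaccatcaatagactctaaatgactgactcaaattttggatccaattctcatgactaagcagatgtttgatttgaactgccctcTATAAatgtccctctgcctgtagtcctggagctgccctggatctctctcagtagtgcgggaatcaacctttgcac
The Maf core TGCTGA, searched on both strands, was present in 7 of the 9 windows and in 19.1% of the windows of all 27025 annotated genes. The windows without it were those of Crybb2 and Crygd. In Cryaa it began 108 bases before the start, in Crybb1 84 and in Cryba1 57 bases before it, and Cryba4 held 3 copies. A TATA-type motif (TATAA or TATATA, both strands, the pair counted once) was present in 8 of 9 windows and in 27.2% of all. It began 23 to 31 bases before the start in 6 of them, the exceptions being Cryba2, across the start itself, and Crybb2, on the other strand. The heat shock motif GAANNTTC was in 0 of the 9 windows and in 7.95% of all. A match of letters is not a bound site, and the absence of a match covers these windows only.

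**Figure D1:**
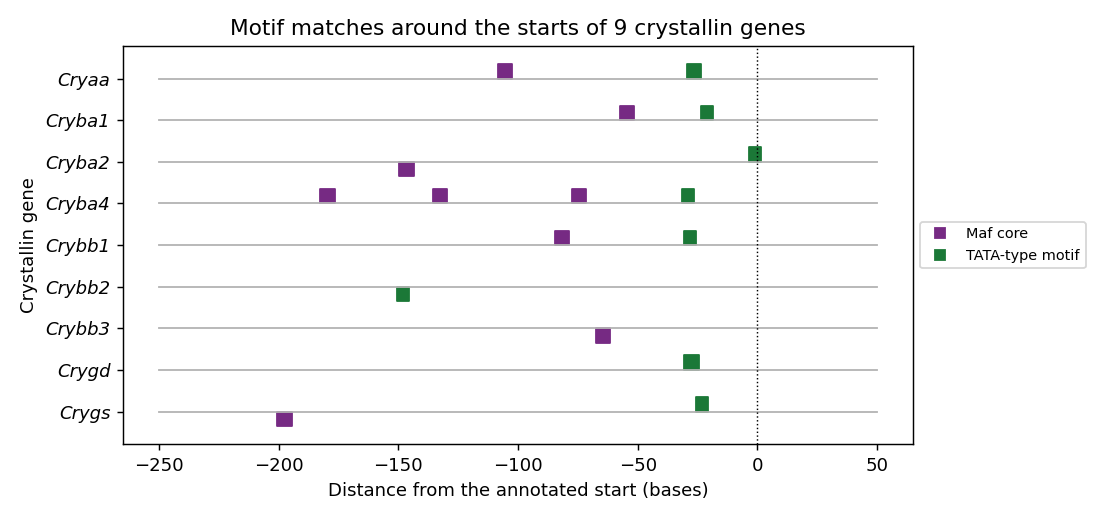
Positions of motif matches around the annotated starts of 9 crystallin genes, in bases from the start (dotted line). Boxes above a line are matches on the transcribed strand and boxes below it on the other strand. Purple boxes are the Maf core, found in 7 of the 9 windows, and green boxes are TATA-type motifs, most of them 23 to 31 bases before the start.

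The libraries held 34065854 to 36438248 counts in the knockout and 31743404 to 34054268 in the control. Cd274, the gene of PD-L1, held 12, 15, 9 and 11 counts in knockouts 1 to 4, against 148, 117, 153 and 165 in controls 1 to 4, with no overlap (log2 fold change -3.73, SE 0.27, edgeR adjusted p = 1.57e-05). Gnat1, the transducin gene of rod photoreceptors and a defining marker of the labelled tissue, stood at 7540 to 11725 CPM (counts scaled to library size) in the knockout and 7383 to 10241 CPM in the control. Summed over the 10 crystallins, counts made up 0.267% of knockout 3, 0.579% of control 2 and 0.182% of control 3, and 0.00435% to 0.00824% of the other 5 libraries. The exact 95% binomial interval of these shares, which covers counting error only, was 0.576% to 0.581% in control 2 and 0.00413% to 0.00458% in knockout 1. The lens-rich libraries thus fall in both genotypes, 1 of 4 knockouts and 2 of 4 controls. Levels are given below as FPKM (counts divided by gene length and by the library's total), which lets genes of different length be compared. That comparison rests on the gene lengths the authors used, which can differ from an annotated transcript (Crybb3: 2498 against 892 bases). In whole retina, more cells of a type and more RNA per cell cannot be told apart.

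Alpha crystallins. Cryaa (Entrez gene 12954, chromosome 17, 31677931 to 31681730, plus strand, mm10), an alpha crystallin chaperone abundant in lens, had the widest range in absolute terms. It stood at 0.580, 0.930, 709 and 5.82 FPKM in knockouts 1 to 4, against 3.79, 1424, 453 and 9.89 FPKM in controls 1 to 4. Knockout 3 and controls 2 and 3 were far above the rest, the lowest of them 45.8 times the highest of the other 5, and the 2 genotypes overlapped. Knockout 1 held only 24 counts of the gene, and control 2 held 56026.

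Cryab (Entrez gene 12955, chromosome 9, 50745951 to 50756636, plus strand), the stress-inducible chaperone, behaved differently from the other 9 genes. It stood at 19.8, 23.5, 156 and 27.2 FPKM in knockouts 1 to 4, against 22.0, 263, 88.0 and 15.6 FPKM in controls 1 to 4. The same 3 libraries were highest, but the lowest of them was only 3.23 times the highest of the other 5. In those 5 libraries Cryab lay within 15.6 to 27.2 FPKM, while Cryaa ran from 0.580 to 9.89 FPKM. Its fewest counts were 1079, in control 4. The gene model of Cryab overlaps that of Hspb2, a neighbouring small heat shock gene with 2 to 20 counts per library.

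**Figure D2:**
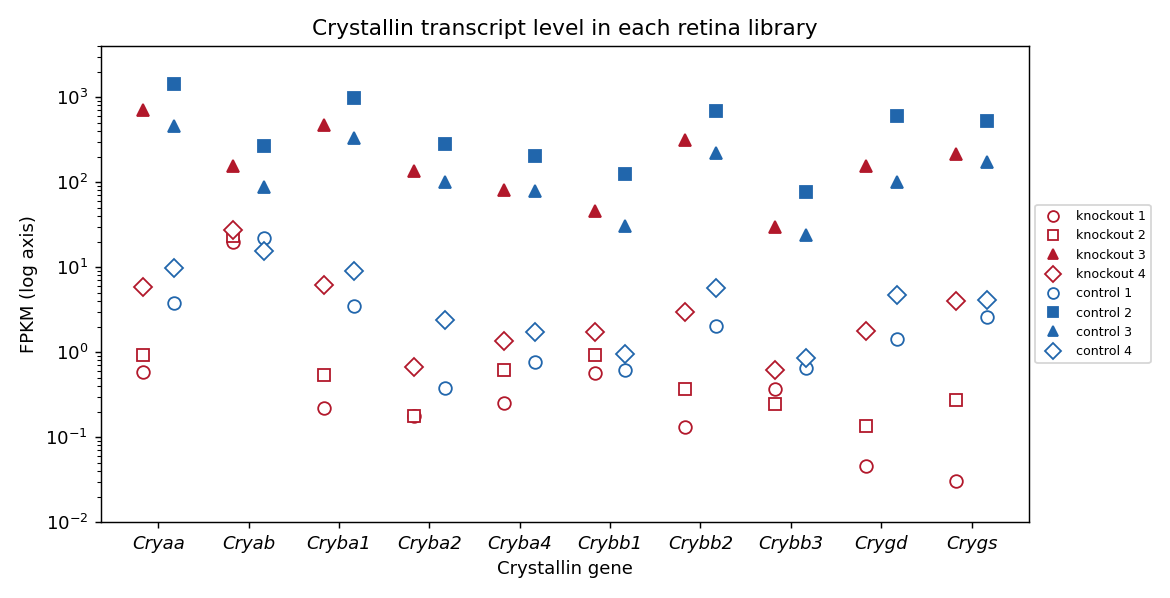
FPKM of the 10 crystallin genes in each library on a log axis, knockout libraries in red left of control libraries in blue. Symbols give the library number, and filled symbols are the 3 lens-rich libraries. Filled symbols stand above all open ones for each gene, by 3.23 times for Cryab and by 17.6 to 45.8 times for the others.

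Acidic beta crystallins. Cryba1 (Entrez gene 12957, chromosome 11, 77718614 to 77725293, minus strand) encodes the A1 and A3 forms of beta crystallin from a single transcript. It stood at 0.220, 0.542, 475 and 6.23 FPKM in knockouts 1 to 4, against 3.50, 978, 334 and 9.13 FPKM in controls 1 to 4. By FPKM it was the second most abundant member in each of the 3 lens-rich libraries, and its genotypes overlapped. In counts Crybb2 was above it, at 17743, 35182 and 11158 against 13856, 25374 and 8752 in knockout 3, control 2 and control 3.

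Cryba2 (Entrez gene 12958, chromosome 1, 74889934 to 74898842, minus strand), another acidic chain, was low outside the lens-rich libraries, with 5 to 67 counts. It stood at 0.179, 0.176, 134 and 0.668 FPKM in knockouts 1 to 4, against 0.384, 278, 100.3 and 2.40 FPKM in controls 1 to 4. Knockouts 1 and 2 held 5 counts each. Cryba4 (Entrez gene 12959, chromosome 5, 112246492 to 112263625, minus strand), the third acidic chain measured, stood at 0.255, 0.614, 81.6 and 1.36 FPKM in knockouts 1 to 4, against 0.759, 204, 79.0 and 1.73 FPKM in controls 1 to 4. For Cryba4, knockout 3 and control 3 were nearly level, whereas for Cryaa knockout 3 stood well above control 3.

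Basic beta crystallins. Crybb1 (Entrez gene 12960, chromosome 5, 112254563 to 112269585, plus strand) lies opposite Cryba4, and the gene models overlap on the 2 strands. It stood at 0.575, 0.918, 46.2 and 1.72 FPKM in knockouts 1 to 4, against 0.617, 125, 30.3 and 0.959 FPKM in controls 1 to 4. Among the other 5 libraries its level differed less than that of Cryaa, and knockout 4, not control 4, was highest. The labels do not give the strand setting of the counting, so reads in the shared stretch cannot be assigned to either gene with certainty.

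Crybb2 (Entrez gene 12961, chromosome 5, 113058258 to 113070117, minus strand), the most abundant basic chain of the lens-rich libraries, stood at 0.132, 0.371, 312 and 2.94 FPKM in knockouts 1 to 4, against 2.06, 695, 218 and 5.73 FPKM in controls 1 to 4. Crybb3 (Entrez gene 12962, chromosome 5, 113075839 to 113082236, minus strand), its upstream neighbour, was the lowest member by FPKM in all 3 lens-rich libraries. In counts Crybb1 was lower there, at 1803, 4349 and 1064 against 2738, 6147 and 1930 in knockout 3, control 2 and control 3. Crybb3 stood at 0.364, 0.243, 30.1 and 0.624 FPKM in knockouts 1 to 4, against 0.656, 75.9, 23.6 and 0.846 FPKM in controls 1 to 4. In knockout 1 the order of these neighbours was turned round, with 7 counts of Crybb2 and 31 of Crybb3.

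Gamma crystallins. Crygd (Entrez gene 12967, chromosome 1, 65061838 to 65063440, minus strand), a gamma chain of the lens fibre core, stood at 0.0462, 0.137, 157 and 1.77 FPKM in knockouts 1 to 4, against 1.44, 605, 99.9 and 4.67 FPKM in controls 1 to 4. Control 2 was set further apart from the rest for Crygd than for any other member, at 391 CPM against 64.0 CPM in control 3 and 101 CPM in knockout 3. Of the 50-base windows in the Crygd transcript, 34.0% recur in transcripts of other gamma crystallin genes, so its reads may be shared with Cryge and Crygf. None of the other 9 genes shared such a window with another gene.

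Crygs (Entrez gene 12970, chromosome 16, 22805203 to 22811410, minus strand), the gamma-like chain of the outer lens, stood at 0.0308, 0.273, 217 and 4.02 FPKM in knockouts 1 to 4, against 2.58, 528, 173 and 4.09 FPKM in controls 1 to 4. Knockout 1 held 1 count each of Crygs and Crygd, too few to give a level.

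The order of the genes by FPKM was the same at its top and bottom in each of the 3 lens-rich libraries. The order by counts differed, with Crybb2 above Cryba1 and Crybb3 above Crybb1 in all 3. By FPKM, Cryaa, Cryba1 and Crybb2 led in that order, and Cryba4, Crybb1 and Crybb3 closed it. The 4 genes between them changed places: Crygs led them in knockout 3 and in control 3, and Crygd led them in control 2. Crygd and Cryab in knockout 3, and Cryba2 and Crygd in control 3, were neighbours in the order and lay within 1 FPKM or so of each other (157 and 156, and 100.3 and 99.9 FPKM). In the other 5 libraries Cryab led, from 34.2 times Cryaa in knockout 1 to 1.57 times in control 4.

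The share of each gene in the summed FPKM of the 10 shows this turn of composition. Cryab made up 6.71%, 5.09% and 5.50% of the sum in knockout 3, control 2 and control 3. In the other libraries it made up 89.3%, 84.8% and 52.0% in knockouts 1, 2 and 4, and 58.2% and 28.3% in controls 1 and 4. Cryaa held 30.6%, 27.5% and 28.4% in the lens-rich libraries and 2.61% to 18.0% in the other 5. The summed FPKM itself was 2316, 5176 and 1599 in knockout 3, control 2 and control 3, and 22.2 to 55.0 in the other 5. Control 4, with the highest sum of those 5, also had the lowest share of Cryab.

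**Figure D3:**
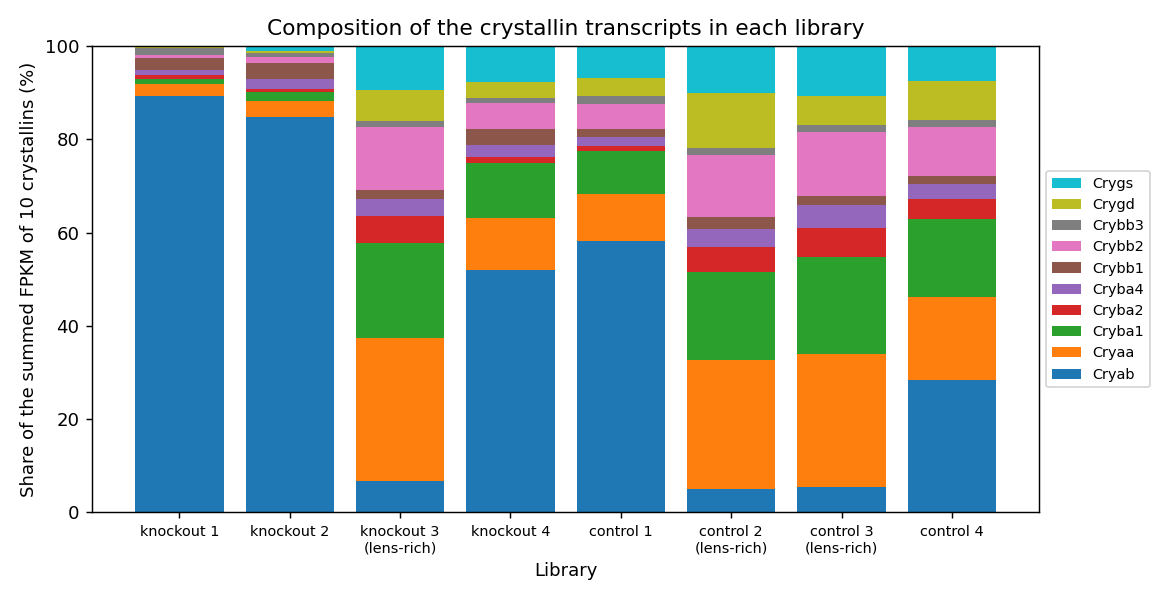
Stacked shares (%) of each gene in the summed FPKM of the 10 crystallins, 1 bar per library, knockouts left of controls. Cryab, the bottom blue segment, takes 5.09% to 6.71% of the bar in the 3 lens-rich libraries and 28.3% to 89.3% in the other 5.

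Ratios within a library do not depend on its depth, and they were close to each other in the lens-rich libraries for most genes. Cryab stood to Cryaa as 0.219, 0.185 and 0.194 in knockout 3, control 2 and control 3. In the other libraries that FPKM ratio was 34.2, 25.3 and 4.67 in knockouts 1, 2 and 4 and 5.80 and 1.57 in controls 1 and 4. The highest and lowest ratio over the 8 libraries thus differed 185-fold, and the intervals from counting error were 22.9 to 53.6 in knockout 1 and 0.182 to 0.188 in control 2. If the Cryab level of the other 5 libraries (15.6 to 27.2 FPKM) is subtracted, the ratio of what remains to Cryaa is 0.181 to 0.197 in knockout 3, 0.166 to 0.174 in control 2 and 0.134 to 0.160 in control 3. That level amounts to 17.7% to 30.9% of all Cryab in control 3 and 5.91% to 10.3% in control 2.

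Cryba1, Cryba2 and Crybb2 kept nearly the same proportion to Cryaa across the lens-rich libraries, and their range there lay within that of the other 5. Cryba1 to Cryaa was 0.669 to 0.736 in the lens-rich libraries and 0.379 to 1.07 in the others. Crybb2 to Cryaa was 0.440 to 0.488 in the lens-rich libraries and 0.227 to 0.580 in the others. A ratio in knockouts 1 and 2 rests on as few as 24 and 39 counts of Cryaa.

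Crybb1 and Crybb3 resembled Cryab in their direction, at far lower levels. Crybb1 to Cryaa was 0.0651, 0.0879 and 0.0668 in knockout 3, control 2 and control 3, against 0.991, 0.987 and 0.296 in knockouts 1, 2 and 4 and 0.163 and 0.0969 in controls 1 and 4. The lower counting bound of knockout 1 was 0.525 and that of knockout 2 was 0.605, both above the lens-rich range. Those of knockout 4 and control 1, at 0.221 and 0.0979, were above it too. The interval of control 4, 0.0666 to 0.137, covered most of the lens-rich range. Crybb3 to Cryaa was 0.0424 to 0.0533 in the lens-rich libraries and 0.0856 to 0.628 in the others. Cryba4 to Cryaa was 0.115 to 0.174 in the lens-rich libraries and 0.175 to 0.660 in the others. These ranges nearly met, at 0.1742 in control 3 and 0.1746 in control 4.

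The same contrast was seen for the neighbours Crybb2 and Crybb3, but not for Crybb1 and Cryba4. Crybb2 to Crybb3 was 10.4, 9.15 and 9.25 in knockout 3, control 2 and control 3, and 0.361, 1.52 and 4.71 in knockouts 1, 2 and 4. It was 3.14 and 6.77 in controls 1 and 4, so no library of these 5 reached the lens-rich range. Crybb1 to Cryba4 was 0.384 to 0.614 in the lens-rich libraries and 0.555 to 2.26 in the others, and the ranges overlapped.

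Crygd differed more among the lens-rich libraries themselves than Crygs. Crygs to Cryaa was 0.305 in knockout 3, 0.371 in control 2 and 0.381 in control 3. Crygd to Cryaa was 0.221 in knockout 3, 0.425 in control 2 and 0.220 in control 3, and the counting interval of control 2, 0.417 to 0.433, lay apart from those of the other pair. Crygs to Crygd was 1.38, 0.872 and 1.73 in the same libraries. Among genes outside the 10, Cryge to Cryaa ran from 0.0222 to 0.105 over these libraries, with control 2 highest. Mip, the water channel of lens fibres, was highest in knockout 3, at 0.0411 of Cryaa against 0.0225 in control 2 and 0.0210 in control 3. In control 2 some keratin genes of the ocular surface, picked after their values were seen, were also high. Krt4 held 162 counts and Krt15 held 234, against 0 to 3 and 1 to 23 in the other 7 libraries. Krt12, a cornea keratin, varied less, with a mean of 2.44 CPM (SD 0.81) over the controls. The sum of 10 cornea and conjunctiva genes, mostly Ptgds, was 146 CPM in control 2 and 165 CPM in control 1. The part of the keratins in the gamma ratio was not tested.

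**Figure D4:**
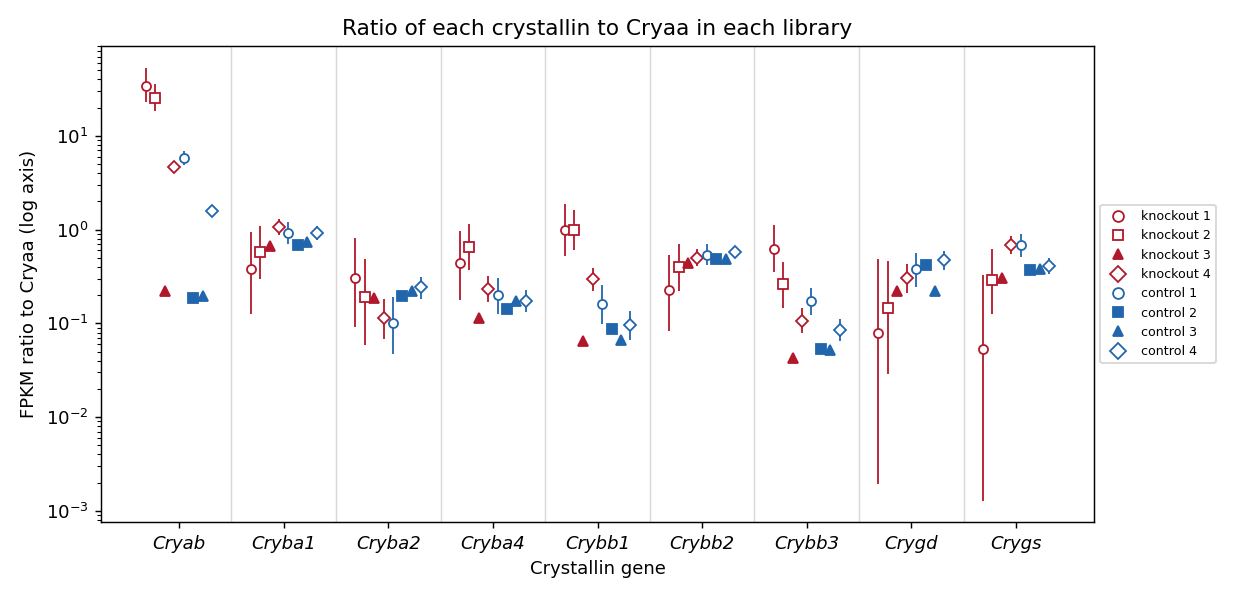
FPKM ratio of 9 crystallins to Cryaa in each library on a log axis, with exact 95% intervals from counting error, knockouts in red left of controls in blue. Filled symbols are the lens-rich libraries, which lie within 1.93 times of each other for each gene. Open symbols lie above them for Cryab, from 1.57 to 34.2, for Crybb1 and Crybb3, and barely for Cryba4 (0.1746 against 0.1742).

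The genes with the most similar pattern outside the 10 were nearly all lens genes. Likeness was the root mean square difference between log2 CPM profiles over the 8 libraries, each centred on its mean, from the mean profile of the 10. Bfsp1, a beaded filament protein of lens fibres, was nearest at 0.33, then Crygc at 0.42, Mip at 0.50, Crygf at 0.58, Crygb at 0.62 and Cryge at 0.77. Lgsn, a lens protein of the glutamine synthetase family, followed at 0.87, Grifin, a lens galectin, at 1.39, and Bfsp2 at 1.66. The tenth, Krt13, was already 2.53 away. The 10 members themselves lay between 0.37 (Cryba4) and 2.27 (Cryab) from their mean profile, so Cryab was less like the others than 9 outside genes were.

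Of 16861 genes with enough counts, 18 had a lowest lens-rich CPM at least 4 times the highest of the other 5 libraries (0.107%). They were 9 members, all but Cryab, together with these same 9 outside genes. In all, 374 genes (2.22%) had the 3 lens-rich libraries above the other 5. These counts use the values that chose the libraries and are given as a description.

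Lens genes that are not crystallins gave a second scale for the same libraries. The summed FPKM of 10 fibre genes, Bfsp1, Bfsp2, Mip and Lgsn among them, was 95.1, 217 and 58.0 in knockout 3, control 2 and control 3, and 0.823 to 2.58 in the other 5. The summed crystallins stood to it as 24.4, 23.9 and 27.6 in the lens-rich libraries and as 21.3 to 36.7 in the others. Without Cryab the 9 other crystallins stood to it as 22.7, 22.7 and 26.0 in the lens-rich libraries. In the others that ratio was 2.89, 4.87 and 17.6 in knockouts 1, 2 and 4, and 12.1 and 15.3 in controls 1 and 4. Only 54 and 57 counts of the 10 fibre genes were found in knockouts 1 and 2. Most of them were from Bfsp2, with 21 and 26 counts, and Lgsn, with 18 and 11. Bfsp2 held 18, 48 and 7 counts in knockout 4, control 1 and control 4, so it did not follow the crystallin sum among these 5 libraries. Lenep, another gene named for the lens, was left out of this sum after its values were seen, because it held 220 to 313 counts in the 5 libraries that are not lens-rich.

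No crystallin differed between the genotypes past the threshold. In a quasi-likelihood model (edgeR, adjusted over 16861 genes) 0 of the 10 passed at an adjusted p of 0.05, and 0 had an unadjusted p under 0.05. DESeq2 also called 0, with 0 at an unadjusted p under 0.05. Over all genes edgeR called 430, or 2.55% (1.2% higher and 1.35% lower in the knockout), and DESeq2 called 8.26%. Scaled by library totals alone, 61.2% of the calls were higher, against 47.2% in the fit used here. The count of 430 was 108 without knockout 3 and 3209 without control 4. All 10 log2 fold changes of knockout over control were negative, from -2.16 to -0.79, with a median of -1.60, beside a median of -0.0011 over all genes tested. The largest was that of Crygd, at -2.16 (SE 1.69, edgeR adjusted p = 0.479). Cryaa was at -1.39 (SE 1.82, edgeR adjusted p = 0.687) and Cryab at -0.79 (SE 0.83, edgeR adjusted p = 0.607). The genes share their libraries, so 10 values of 1 sign are not 10 observations.

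The direction of most of the genes rested on control 2. Without it, 7 of the 10 log2 fold changes were positive, from -0.35 for Cryba4 to 0.45 for Cryab. Without knockout 3 they ran from -8.15 to -2.09, all 10 with an unadjusted p under 0.05, as had 14.3% of all 17153 genes in that fit, but 0 passed (edgeR adjusted p 0.116 for Cryba2, 0.262 for Cryab).

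With all 3 lens-rich libraries left out, 3 knockouts were compared with 2 controls, and 15 of 17351 genes passed (0.0865%). Again 0 of the 10 crystallins were among them, and 2, Cryba2 and Crygd, had an unadjusted p under 0.05, as had 7.53% of all genes. Cryab turned to 0.31 (SE 0.18, edgeR adjusted p = 0.726) and Crybb1 to 0.43 (SE 0.57, edgeR adjusted p = 0.891). The other 8 stayed negative, from -2.23 for Crygd to -0.75 for Cryba4. In FPKM, Cryab stood at 19.8, 23.5 and 27.2 in knockouts 1, 2 and 4, against 22.0 and 15.6 in controls 1 and 4, so the genotypes overlapped.

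With the log2 sum of 11 lens genes other than crystallins as a covariate and all 8 libraries, 284 genes passed (1.68%), with 0 crystallins among them. Unlike the fibre gene sum above, this sum included Lenep. Lenep held 8.85 of its 10.4 CPM in knockout 1 and 7.43 of its 12.0 CPM in control 4. A covariate without Lenep was not fitted. Cryab was then at 0.34 (SE 0.15, edgeR adjusted p = 0.235) and was the 1 crystallin with an unadjusted p under 0.05, where 20.4% of all genes had one. Cryaa was at -0.57 (SE 0.54, edgeR adjusted p = 0.576). The standard error of Cryab was 0.83 without that covariate.

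**Figure D5:**
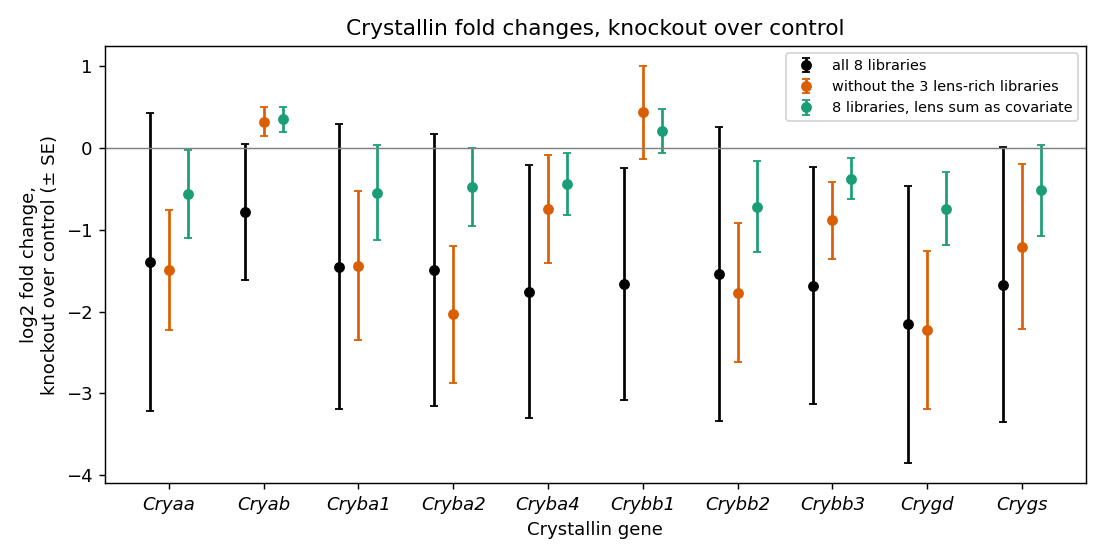
Log2 fold change of each crystallin, knockout over control, with its standard error. Fits are from all 8 libraries (black), without the 3 lens-rich libraries (orange) and with the lens sum, Lenep included, as a covariate (green). All black points are below 0 with wide errors, and Cryab and Crybb1 are above 0 in the other fits, with no gene past the threshold in any of them.

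Related genes were followed through lists. Over all genes, 21.3% had an unadjusted p under 0.05 and DESeq2 called 8.26%. Every edgeR list call named below was lost without the 3 lens-rich libraries, except 1 of the haemoglobin genes. That fit called only 15 genes in all, and DESeq2 was not run without these libraries. Of 20 genes of lens fibre and epithelium 10 could be tested and 0 passed (edgeR; 0 at an unadjusted p under 0.05, and 0 by DESeq2), with a median log2 fold change of -0.90. Among them 5 (Lenep, Hsf4, Slc7a14, Capn3 and Fabp5) held at least 10 counts in every library, which shows that retina libraries without much lens transcript carry them too. Fabp5, a fatty acid binding protein, stood at 55.9, 121 and 37.2 FPKM in knockout 3, control 2 and control 3, against 18.6 to 23.0 FPKM in the other 5. In the same order Lenep stood at 24.8, 80.0 and 22.4 FPKM, against 9.89 to 13.8 FPKM. The rest overlapped between these sets of libraries. Slc7a14 stood at 4.31, 2.76 and 2.84 against 3.80 to 6.61 FPKM, and Capn3 at 0.417, 0.416 and 0.280 against 0.298 to 0.497 FPKM. Hsf4 stood at 2.27, 2.71 and 1.13 against 1.11 to 2.55 FPKM. Foxe3, Pitx3 and Sox1, transcription factor genes of the lens, had at most 25 counts in any library and could not be tested.

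Of the small heat shock genes related to the alpha crystallins, 6 of 8 could be tested and 0 passed (edgeR; 0 at an unadjusted p under 0.05, and 0 by DESeq2), with a median of -0.20. Hspb1 stood at 2.60, 4.32, 7.06 and 2.86 CPM in knockouts 1 to 4, against 2.48, 22.6, 5.76 and 3.70 CPM in controls 1 to 4 (log2 fold change -1.03, SE 0.57, edgeR adjusted p = 0.312). The 3 lens-rich libraries were its highest as well. Hspb6, the most abundant of the list, was at 70.5 to 108 CPM in the knockout and 75.7 to 92.2 CPM in the control. Of 16 heat shock factors and chaperones 1 fell, Hsf2, a heat shock transcription factor (log2 fold change -0.48, SE 0.08, edgeR adjusted p = 0.00980), while 9 had an unadjusted p under 0.05 and DESeq2 called 5, and the median was 0.28. Of 19 transcription factors known to act on lens crystallin genes 15 were tested and 0 passed (edgeR; 1 at an unadjusted p under 0.05, and 0 by DESeq2), with a median of 0.13. Pax6, the eye master regulator, was the most abundant of them, with a log2 fold change of 0.03 (SE 0.14, edgeR adjusted p = 0.927).

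Lists of other eye tissues gave the setting of these values. Cornea and conjunctiva genes summed to 113 to 204 CPM in the knockout and 73.4 to 165 CPM in the control, mostly Ptgds. Of the 10 genes 6 were tested and 0 passed by edgeR, but all 6 had an unadjusted p under 0.05 and DESeq2 called 2 (median log2 fold change -1.99). Ciliary body, iris and pigment cell genes summed to 171 to 225 CPM in the knockout and 179 to 308 CPM in the control, and 0 of 11 passed (edgeR; 1 at an unadjusted p under 0.05, and 0 by DESeq2; median -0.26). Pigment epithelium genes summed to 467 to 782 CPM in the knockout and 433 to 614 CPM in the control, and 1 of 9 rose, the opsin gene Rgr (log2 fold change 1.06, SE 0.25, edgeR adjusted p = 0.0444), with 5 at an unadjusted p under 0.05, 3 called by DESeq2 and a median of 0.89. Of 12 Müller glia genes 2 rose, Clu, a secreted chaperone, and Vim, an intermediate filament protein, with 6 at an unadjusted p under 0.05, 5 called by DESeq2 and a median of 0.27. All 4 haemoglobin genes fell (3 by DESeq2, and 1 without the 3 lens-rich libraries), at a summed 1.59 to 4.03 CPM in the knockout and 9.86 to 14.1 CPM in the control. Their part in the crystallin values was not tested.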

How the data were processed

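Polyadenylated RNA of 8 retina samples was sequenced. Per the labels' protocols, TRIzol was used for extraction and the VAHTS Universal V6 kit for library construction. Per the submitters' processing notes, fastp, HISAT2, HTSeq and mm10 were used; their versions, the annotation and the strand setting are not given in those notes. The authors deposited raw counts, whole numbers for 25477 genes. The FPKM table deposited by the authors equals those counts over the library total and a length that is constant for each gene, to within 2.69e-11%. Columns were matched to samples by title, and replicates of a group differed by more than sampling noise.

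Counts were fitted with edgeR 4.0.16 in R 4.3.3: TMM factors, filterByExpr (minimum count 10, minimum total 15), and a quasi-likelihood test of knockout over control over all 16861 genes kept, two-sided, Benjamini and Hochberg adjusted, threshold 0.05. The standard error was taken as |log2 fold change| over the root of the F statistic. CPM use TMM-scaled library sizes; profiles use log2 CPM with a prior count of 2. In the deepest and shallowest library 3 counts correspond to 0.0823 and 0.0945 CPM. Intervals of shares and ratios are exact binomial (95%) and cover counting error only. The fit was tested on simulated counts. Positions and promoter windows are RefSeq's for GRCm38.p6, matched by Entrez identifier, and shared 50-base windows were sought in GENCODE M21 transcripts. Alternatives were RLE factors, library totals, other filters, robust dispersions, DESeq2 1.42.0, omission of each library, a block for the number in the title, the lens-rich libraries left out and a lens covariate.

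The members, the lens-rich libraries and the gene lists were chosen with earlier results of these data known. Named genes are the 10 members, Cd274, the 10 nearest profiles, and from each list the 3 with the highest mean CPM and those past the threshold; not all are discussed, and others were chosen after their values were seen. Results for some listed genes are not reported here.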

Additional observations from a re-analysis of the deposited data

Results flagged for a closer look

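Each crystallin was screened in each genotype for a library far from the other 3, by the gap to its nearest neighbour as a share of the whole range. Of 20 such groups 11 were picked out. The lens-rich libraries were chosen by these same levels and the genes share their libraries, so the count is a description, and the 5% that chance picks among unselected groups is no measure of it. In 10 of them knockout 3 stood above the other knockouts. Its level was 879 CPM for Cryaa, where the other knockouts reached 7.00 CPM, 323 CPM for Cryab (others 38.9 to 54.9 CPM), and 388, 112 and 86.3 CPM for Cryba1, Cryba2 and Cryba4 (others up to 4.95, 0.543 and 1.40 CPM). It was 50.5, 497 and 76.7 CPM for Crybb1, Crybb2 and Crybb3 (others up to 1.83, 4.55 and 1.54 CPM), and 101 and 211 CPM for Crygd and Crygs (others up to 1.12 and 3.80 CPM). The remaining 1 was Crygd in control 2, at 391 CPM, where the other controls ran from 0.909 to 64.0 CPM. For the other 9 crystallins the controls were not picked out, as control 3 was high too.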

How the results depend on the processing

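The count of 430 genes past the threshold was 690 with no filter on low counts, 1392 with DESeq2, 228 with the title number as a replicate block, 15 without the 3 lens-rich libraries, 284 with the lens covariate, and 108 to 3209 with 1 library left out (108 without knockout 3, 3209 without control 4). RLE factors, library totals, a filter at 1 CPM and robust dispersions kept it within 1.5 times. Of 10 crystallins 0 passed in all these fits. Listed lens genes other than crystallins numbered 0 to 1 past the threshold with 1 library left out. The 1 was Slc7a14, without control 4. That gene held 812 to 2046 counts over the 8 libraries, was lowest in controls 2 and 3, and so did not follow the lens-rich libraries. Cryab turned from negative to 0.31 without the lens-rich libraries and 0.34 with the covariate, and Crybb1 to 0.43 and 0.21; the cause was not tested. With 1 library left out, log2 fold changes ran from -7.63 to 0.23 for Cryaa, -2.09 to 0.45 for Cryab, -7.18 to 0.0897 for Cryba1, -8.15 to 0.0011 for Cryba2, -5.23 to 0.24 for Crybb1, -7.68 to 0.0938 for Crybb2 and -8.11 to 0.19 for Crygd, and stayed negative at -6.61 to -0.35 for Cryba4, -5.98 to -0.07 for Crybb3 and -6.97 to -0.08 for Crygs. The highest values were without control 2 and the lowest without knockout 3. Same-numbered libraries did not deviate together in every pair (correlations of deviations over genes 0.213, -0.0410, 0.121 and 0.00629 for numbers 1 to 4), so the block result is given here only. The fold between the highest and lowest ratio of Cryab to Cryaa, 185, was the same from counts. That of summed crystallins to summed lens genes was 13.0 with Lenep in the lens sum and 1.72 without it, an alternative chosen after seeing the data. In knockouts 1 and 2, ratios rest on few counts, and depth limits them.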

Other observations

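A list of other crystallin-named genes held 14 measured genes, further lens gamma crystallins among them. Of these 11 were tested, 2 rose, none fell, and the median log2 fold change was -0.23. DESeq2 also called 2, and without the 3 lens-rich libraries 0 passed by edgeR. Crym, which encodes a thyroid hormone-binding protein, stood at 104, 92.8, 101 and 119 CPM in knockouts 1 to 4, against 68.4, 66.5, 69.2 and 50.7 CPM in controls 1 to 4 (log2 fold change 0.71, SE 0.11, edgeR adjusted p = 0.00730). Cryzl2 stood at 11.4, 10.3, 10.7 and 9.06 CPM in knockouts 1 to 4, against 6.36, 6.88, 5.05 and 5.92 CPM in controls 1 to 4 (log2 fold change 0.78, SE 0.15, edgeR adjusted p = 0.0175). For both genes the genotypes did not overlap, as for 11% of all tested genes. Crybg3, a large protein with beta-gamma domains, differed little, at 36.3 to 39.0 CPM in the knockout and 34.0 to 40.9 CPM in the control.

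The 5 further gamma crystallins of lens, Cryga, Crygb, Crygc, Cryge and Crygf, followed the lens-rich libraries. Crygb held 8, 5, 4518 and 95 counts in knockouts 1 to 4, against 25, 16451, 2778 and 92 in controls 1 to 4. Cryge held 1, 1, 708 and 22 counts in knockouts 1 to 4, against 2, 4347, 296 and 18 in controls 1 to 4. These genes share 50-base windows with each other, 29.4% of those in Crygb and 46.5% in Cryge, so the split of reads between them is uncertain.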
